A study of Rattus norvegicus with 17 samples.

Results

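Cpxm1 and the related carboxypeptidase genes Cpxm2, Cpz, Cpe, Cpd, Cpm and Agbl2 were followed in the meibomian gland (MG), the lipid-secreting gland of the eyelid, of 17 rats. These 7 genes were chosen by name, with Cpxm1 selected on its rise after UVB in these same rats. Of the 7 genes, 6 were listed among the 17251 genes of the expression table, and Cpm was not analysed here. The 5 genes Cpxm1, Cpxm2, Cpz, Cpe and Cpd reached at least 1 TPM in at least 3 rats, the filter for the statistical model, and each of them was above 1 TPM in all 17 rats. Agbl2 reached 1 TPM in 1 rat and stayed outside the model.

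Female Sprague-Dawley rats of 10 to 12 weeks were wild type (WT) or carried P1.hMR, a transgene for the human mineralocorticoid receptor (MR) under its own proximal P1 promoter, which acts in all tissues that express MR and not in the MG alone. The UVB groups had their shaved upper eyelids exposed to ultraviolet B for 5 days, and the control groups received no UVB. Whether control rats were also shaved is not stated, so UVB and shaving cannot be told apart. Without UVB there were 4 WT and 5 P1.hMR rats (Control WT and Control P1.hMR), with UVB there were 3 and 5 (UVB WT and UVB P1.hMR), and total RNA of the dissected MG was sequenced. Values are TPM, the share of each transcript in a sample, which are corrected for gene length, so levels can be compared between genes, but which keep no read depth. The human transgene was listed at 0 TPM in all WT rats and at 5.31 to 9.31 TPM in all P1.hMR rats, and the 10 meibocyte and sebocyte marker genes summed to at least 38248 TPM in every rat. In whole glands, fewer cells of a type and less RNA per cell cannot be told apart.

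Carboxypeptidases of the M14 family are zinc enzymes that remove amino acids from the C-terminal end of proteins and peptides. Cpe, Cpd, Cpm and Cpz trim basic residues, Cpe in the maturation of peptide hormones, Cpd in the Golgi network, Cpm at the cell surface and Cpz in the extracellular matrix, where it also binds Wnt proteins. Cpxm1 and Cpxm2 have the fold and a discoidin domain but lack residues needed for catalysis, are regarded as inactive enzymes, and CPXM1 is known as a secreted collagen-binding protein. Agbl2 belongs to the cytosolic carboxypeptidases that shorten the tails of tubulin.

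The stretches just upstream of Cpxm1 and Cpxm2 are shown because these close relatives had opposite directions after UVB. RefSeq promoters of the assembly GRCr8 were found for 5 of the 7 genes (Cpxm1, Cpxm2, Cpe, Cpm and Agbl2), and the 250 bases before the annotated start of transcription are printed 5′ to 3′ along the gene, with matches to the GC box, GGGCGG on either strand, in capitals. The Cpxm1 stretch lies at chr3:138048444-138048693 on the minus strand and the Cpxm2 stretch at chr1:196377348-196377597 on the minus strand.
Cpxm1: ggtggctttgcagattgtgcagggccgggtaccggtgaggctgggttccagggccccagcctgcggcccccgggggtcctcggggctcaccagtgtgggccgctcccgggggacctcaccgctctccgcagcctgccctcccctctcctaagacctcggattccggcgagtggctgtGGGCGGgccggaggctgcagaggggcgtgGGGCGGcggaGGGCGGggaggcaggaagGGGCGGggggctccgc
Cpxm2: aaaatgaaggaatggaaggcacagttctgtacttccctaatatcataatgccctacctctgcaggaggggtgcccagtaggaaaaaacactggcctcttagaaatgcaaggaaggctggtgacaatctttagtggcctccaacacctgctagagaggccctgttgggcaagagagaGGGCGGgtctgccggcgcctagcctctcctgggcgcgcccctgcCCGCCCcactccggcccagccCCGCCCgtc

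The Cpxm1 stretch held 4 GC box matches and the Cpxm2 stretch 3, and of the 27457 genes in the RefSeq table, each read by 1 stretch, 32.4% held at least 1. G and C made up 75.6% of the Cpxm1 stretch and 59.2% of the Cpxm2 stretch, against a median of 52% over all stretches. Neither stretch had a match on either strand to TGANTCA (AP-1, found in 6.36% of stretches), to TATAAA (the TATA box, 13.1%) or to the full palindromic element for glucocorticoid and mineralocorticoid receptors (0.364%). A match is a description of these letters and not of binding.

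Cpxm1 was a low-level transcript in control glands and an abundant one after UVB. The 4 Control WT rats had 4.03, 3.89, 4.46 and 6.45 TPM, and the 5 Control P1.hMR rats had 4.43, 4.81, 4.25, 4.98 and 5.5 TPM. The 3 UVB WT rats had 79.6, 39.83 and 108.65 TPM, and the 5 UVB P1.hMR rats had 94.45, 56.09, 61.32, 75.36 and 63.06 TPM. All 8 UVB rats were far above all 9 control rats, and the lowest UVB rat, UVB WT 2, was far from the highest control rat, Control WT 4. Within the UVB groups the WT rats spread more widely than the P1.hMR rats, and they held both the lowest and the highest value. The mean of Control P1.hMR was 4.79 ± 0.49 TPM (SD, n = 5) and that of UVB P1.hMR 70.1 ± 15.4 TPM (SD, n = 5), 14.6 times higher, and the UVB WT mean was 16.2 times the Control WT mean. On the log2(TPM + 1) scale, which understates changes of low genes, the fold changes were 3.66 (standard error 0.25) in WT and 3.60 (standard error 0.21) in P1.hMR rats. These values gave Cpxm1 rank 1 in WT and rank 3 in P1.hMR rats, counted from the highest, among the 13105 genes in the model. They are given without a test because the gene was picked for this rise.

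Cpxm2, the nearest relative of Cpxm1, had the opposite direction. Its TPM were 10.97, 13.66, 14.72 and 15.35 in Control WT and 13.22, 15.71, 16.25, 16.41 and 16.37 in Control P1.hMR rats. They were 9.41, 7.22 and 9.01 in UVB WT and 8.26, 7.01, 9.94, 10.06 and 8.22 in UVB P1.hMR rats. Every UVB rat lay below every control rat. After UVB the log2 fold change was -0.62 for WT (standard error 0.13) and -0.78 for P1.hMR rats (standard error 0.10).

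Cpz, the matrix-bound member, was also lower after UVB. It had 5.11, 9.19, 7.82 and 6.02 TPM in Control WT and 7.45, 7.95, 7.1, 7.83 and 9.31 TPM in Control P1.hMR rats. It had 4.79, 4.08 and 2.25 TPM in UVB WT and 3.64, 3.44, 3.81, 3.51 and 1.98 TPM in UVB P1.hMR rats. The highest UVB rat stayed below the lowest control rat, and 1 rat in each UVB group was well under the others. The log2 fold change was -0.79 for WT (standard error 0.20) and -1.08 for P1.hMR rats (standard error 0.17). Without UVB WT 3 the WT value was -0.54 and no longer met the criteria of a call.

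Cpe, the prohormone-trimming enzyme, was the most abundant of the 6 genes in control glands. It had 162.39, 155.95, 121.32 and 132.41 TPM in Control WT and 135.9, 117.93, 102.61, 120.89 and 88.93 TPM in Control P1.hMR rats. It had 81.83, 61.43 and 87.22 TPM in UVB WT and 98.67, 96.0, 59.43, 63.7 and 79.89 TPM in UVB P1.hMR rats. The groups were apart in WT rats, whereas in P1.hMR rats Control P1.hMR 5 lay below UVB P1.hMR 1 and 2. The log2 fold change was -0.89 for WT (standard error 0.18) and -0.52 for P1.hMR rats (standard error 0.15). The P1.hMR value is close to the limit of 0.5 and fell under it without Control P1.hMR 1 (-0.45), Control P1.hMR 4 (-0.49), UVB P1.hMR 3 (-0.42) or UVB P1.hMR 4 (-0.45).

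Cpd, which acts in the Golgi network, was steady by comparison. It had 36.95, 42.53, 32.8 and 35.03 TPM in Control WT and 36.89, 33.18, 35.43, 38.95 and 38.36 TPM in Control P1.hMR rats. It had 41.44, 43.07 and 43.54 TPM in UVB WT and 45.72, 44.9, 47.21, 45.15 and 43.85 TPM in UVB P1.hMR rats. Control WT 2 reached into the UVB WT range, while all UVB P1.hMR rats were above all Control P1.hMR rats. The log2 fold change was 0.21 for WT (standard error 0.07) and 0.31 for P1.hMR rats (standard error 0.06), under the limit of 0.5 in both.

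Agbl2, the tubulin carboxypeptidase, was barely measured. It had 0.21, 0.35, 0.46 and 0.27 TPM in Control WT, 0.5, 0.43, 0.41, 1.03 and 0.67 TPM in Control P1.hMR, 0.42, 0.24 and 0.18 TPM in UVB WT and 0.1, 0.16, 0.25, 0.23 and 0.02 TPM in UVB P1.hMR rats. The WT groups overlapped, and the UVB P1.hMR rats were all below the Control P1.hMR rats at levels near or under 1 TPM.

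**Figure D1:**
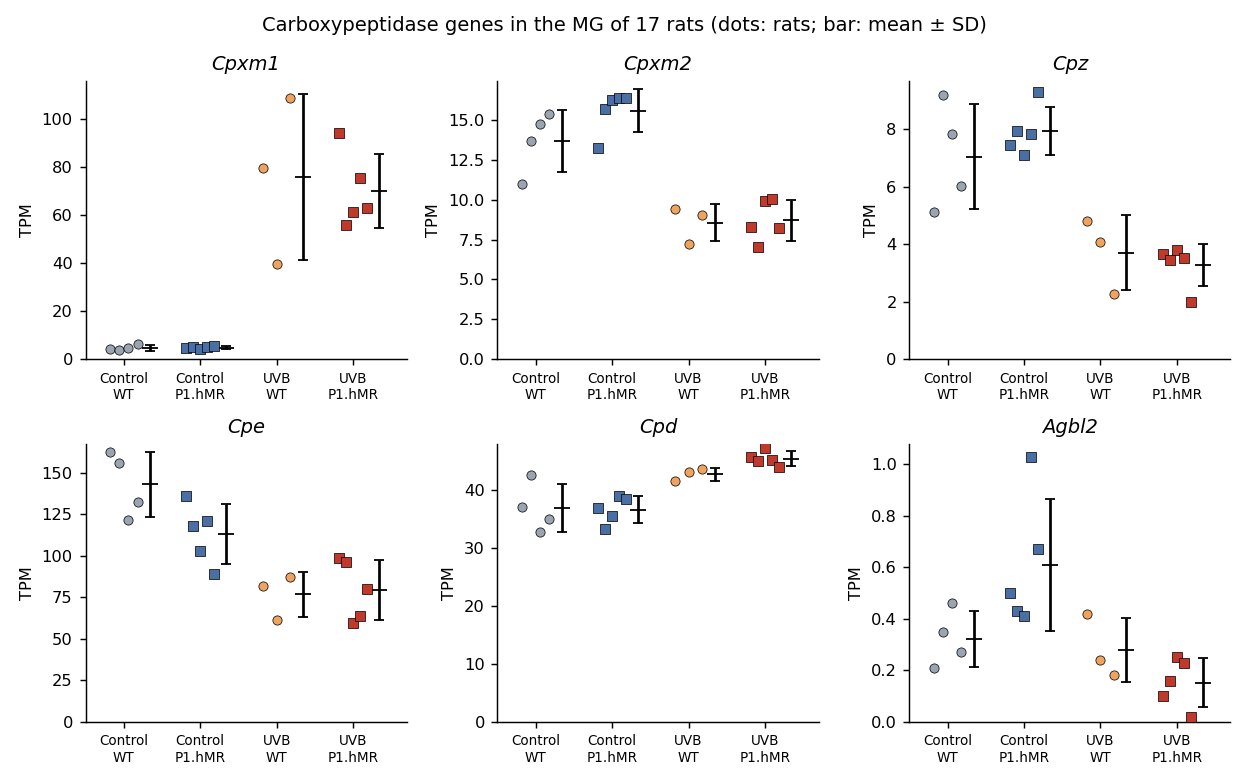
TPM of the 6 listed carboxypeptidase genes in each of 17 rats (dots) with the mean and SD of each group (bars). Cpxm1 is at 3.89 to 6.45 TPM in the 9 control rats and 39.83 to 108.65 TPM in the 8 UVB rats, Cpxm2 and Cpz of all UVB rats lie below those of all control rats, and Cpe overlaps between the P1.hMR groups.

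A gene was called at a limma adjusted p under 0.05 (Benjamini-Hochberg over 13105 genes) and a log2 fold change of 0.5 or more in size. In WT rats 1 of the 5 modelled genes, Cpxm1, was called higher after UVB, where 3.92% of all modelled genes were, and 3 (Cpxm2, Cpz and Cpe) were called lower, where 3.98% were. In P1.hMR rats the same 1 and 3 genes were called, beside 5.05% of all genes called higher and 5.71% called lower. The UVB and control rats did not overlap for 4 of the 5 genes in WT (Cpxm1, Cpxm2, Cpz and Cpe), as for 26.6% of all genes, and for 4 in P1.hMR rats (Cpxm1, Cpxm2, Cpz and Cpd), as for 27.2% of all genes. Since the genes were chosen with the UVB results known, these counts describe the list and carry no weight of their own.

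The order of levels shifted with the change of Cpxm1. In both control groups the mean TPM descended from Cpe through Cpd, Cpxm2, Cpz and Cpxm1 to Agbl2, and the ranges of neighbours overlapped for Cpz and Cpxm1 in Control WT only. In both UVB groups Cpxm1 stood between Cpe and Cpd. Its range overlapped that of Cpe in both UVB groups and that of Cpd in UVB WT. Cpxm1 had a higher mean TPM than 41.9% of the 17251 listed genes in each control group, 89.1% in UVB WT and 88.5% in UVB P1.hMR rats.

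Within single rats the balance of Cpxm1 and Cpxm2 was reversed. The ratio of Cpxm1 to Cpxm2 TPM was 0.26 to 0.42 in the 9 control rats and 5.52 to 12.1 in the 8 UVB rats. The 20 listed M14 genes together summed to 417 ± 36.4 TPM (SD, n = 4) in Control WT, 401 ± 56.8 TPM (SD, n = 5) in Control P1.hMR, 387 ± 79.2 TPM (SD, n = 3) in UVB WT and 409 ± 39.9 TPM (SD, n = 5) in UVB P1.hMR rats. The ranges of this sum overlapped between all 4 groups. Cpxm1 made up 1.14% ± 0.31 (SD, n = 4) of that sum in Control WT and 19.1% ± 6.3 (SD, n = 3) in UVB WT, and 1.22% ± 0.24 (SD, n = 5) in Control P1.hMR and 17.05% ± 2.69 (SD, n = 5) in UVB P1.hMR rats.

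**Figure D2:**
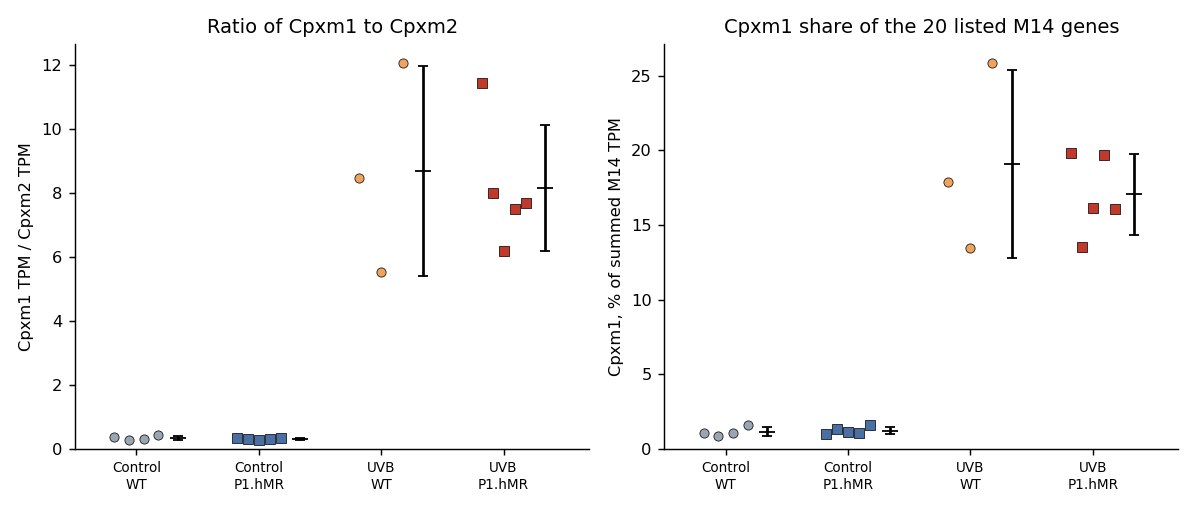
Ratio of Cpxm1 to Cpxm2 TPM (left) and Cpxm1 as a percentage of the summed TPM of the 20 listed M14 genes (right) in each of 17 rats, with the mean and SD of each group. The ratio is 0.26 to 0.42 in control rats and 5.52 to 12.1 in UVB rats, and the share is 1.60% or less in control rats and 13.4% or more in UVB rats.

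Whether the MR transgene moved these genes was asked next. Cpxm1 was picked for its rise after UVB, and whether genotype results also bore on the choice of genes is not recorded. None of the 5 genes was called between P1.hMR and WT rats under UVB, where 0.0229% of all genes were, or without UVB, where 0.00763% were. Under UVB, Cpxm1 differed by a log2 value of -0.03 (95% interval -0.53 to 0.48, adjusted p = 0.979 from limma), and an exact permutation test gave p = 0.929 (two-sided, smallest possible p = 0.0179 over 56 arrangements). Without UVB it differed by 0.04 (95% interval -0.42 to 0.50, adjusted p = 0.998 from limma, exact permutation p = 0.794, smallest possible 0.00794). With each rat left out in turn, the difference under UVB ran from -0.43 to 0.28.

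The other 4 genes differed between genotypes under UVB by log2 values of 0.02 for Cpxm2 (95% interval -0.24 to 0.28), -0.12 for Cpz (-0.53 to 0.30), 0.04 for Cpe (-0.33 to 0.40) and 0.09 for Cpd (-0.06 to 0.23). The 5 UVB P1.hMR rats all had more Cpd than the 3 UVB WT rats, from 43.85 TPM against at most 43.54 TPM, and the adjusted p was 0.708 from limma. Groups this small can separate by chance, and the share of all genes that separate between the genotypes was not computed. Without UVB, Cpe was lower in P1.hMR rats by a log2 value of -0.34 (95% interval -0.68 to -0.0008, adjusted p = 0.998 from limma). This was the only one of the 5 genes with an unadjusted p under 0.05 in either genotype comparison. Cpxm2 at 0.18, Cpz at 0.18 and Cpd at -0.01 on the log2 scale had intervals that included 0.

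The UVB responses of the 2 genotypes did not differ detectably for any of the 5 genes. The interaction, the log2 response of P1.hMR minus that of WT rats, was -0.07 for Cpxm1 (95% interval -0.75 to 0.62, adjusted p = 0.985 from limma, exact permutation p = 0.863 over 7056 arrangements of genotype within treatment). It was 0.37 for Cpe (-0.13 to 0.87), -0.29 for Cpz (-0.85 to 0.27), -0.16 for Cpxm2 (-0.51 to 0.18) and 0.09 for Cpd (-0.10 to 0.29). Among all genes 0% were called in this test by limma, the smallest adjusted p was 0.306, and 907 genes had an unadjusted p under 0.05, none of them among the 5.

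Of 16 other M14 genes, 14 were listed and 8 passed the filter. After UVB 1 was called higher and 1 lower in each genotype. Among all modelled genes 3.92% (WT) and 5.05% (P1.hMR) were called higher, and 3.98% and 5.71% lower. The median log2 fold change of the 8 was 0.05 for WT and -0.04 for P1.hMR rats, beside 0.01 and -0.02 over all genes. Cpa3, the carboxypeptidase of mast cell granules, rose from 1.38 to 3.13 TPM in control rats to 3.28 to 10.26 TPM in UVB rats. Its log2 fold change was 0.77 in WT (standard error 0.20, adjusted p = 0.0129 from limma) and 1.37 in P1.hMR rats (standard error 0.17, adjusted p = 1.49e-05). All UVB P1.hMR rats had more Cpa3 than all UVB WT rats, a log2 difference of 0.64 that did not pass (adjusted p = 0.280 from limma). As for Cpd, the share of all genes that separate in this way was not computed. Cpa6, a secreted carboxypeptidase, fell from 1.4 to 2.44 TPM to 0.54 to 1.33 TPM, by 0.59 on the log2 scale in WT (adjusted p = 0.0132 from limma) and by 0.63 in P1.hMR rats (adjusted p = 0.00113). Aebp1, the collagen-binding member that like Cpxm1 carries a discoidin domain and is held to be inactive, was at 44.93 to 58.29 TPM in control and 51.73 to 79.76 TPM in UVB rats, with log2 fold changes of 0.42 and 0.22 that were under the limit. Cpa4, the most abundant of the 14 by group mean, was at 83.37 to 205.87 TPM in control and 59.05 to 141.65 TPM in UVB rats, with log2 fold changes of -0.67 in WT (standard error 0.28, adjusted p = 0.0962 from limma) and -0.31 in P1.hMR rats (standard error 0.23, adjusted p = 0.292), and was not called. The tubulin-trimming Agtpbp1, Agbl1 and Agbl5 had log2 fold changes between -0.17 and 0.10.

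**Figure D3:**
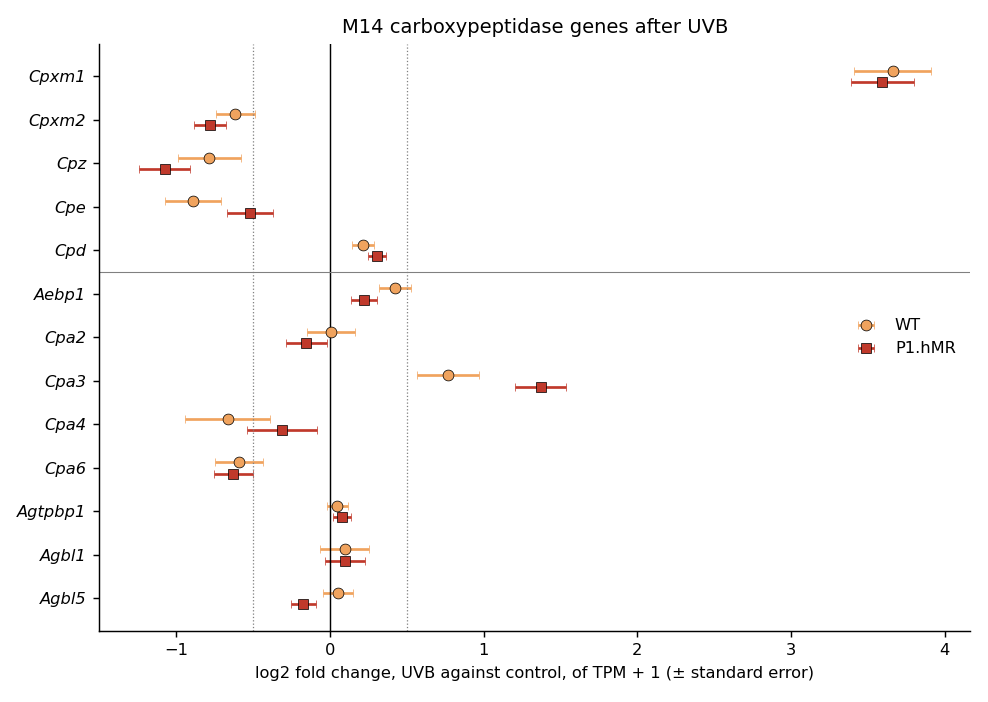
Log2 fold change of TPM + 1, UVB against control, with standard errors, for the 5 modelled genes (above the line) and the 8 other modelled M14 genes (below), in WT (circles) and P1.hMR rats (squares). Dotted lines mark an absolute value of 0.5. Cpxm1 lies at 3.66 and 3.60, and the nearest other M14 gene, Cpa3, at 0.77 and 1.37.

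Partners of these enzymes were read from pathway lists. Beside their counts, 3.92% of all modelled genes were called higher and 3.98% lower in WT, and 5.05% and 5.71% in P1.hMR rats. Median log2 fold changes over all genes were 0.01 and -0.02. Of 3 carboxypeptidase inhibitors and subunits, Lxn and Rarres1 were modelled and neither was called, with Lxn, the latexin inhibitor, at log2 fold changes of 0.23 and 0.34 in WT and P1.hMR rats. Of 11 listed genes of prohormone and proprotein processing, 9 were modelled, and 2 were called higher and 1 lower in WT, 1 higher and 0 lower in P1.hMR rats (median log2 fold changes 0.04 in both). Pcsk5, a proprotein convertase, rose from 0.79 to 1.34 TPM to 2.08 to 4.56 TPM, by log2 fold changes of 1.07 in WT (adjusted p = 0.00041 from limma) and 0.98 in P1.hMR rats (adjusted p = 4.1e-05). Pcsk6, another convertase of the same family, fell by 0.52 on the log2 scale in WT rats (adjusted p = 0.0084 from limma), and its value of -0.49 in P1.hMR rats (adjusted p = 0.0016) missed only the limit of 0.5. The count of 2 genes called higher in WT includes 1 that entered the model through UVB rats alone. Pcsk1 and Pcsk2, the convertases that work with Cpe in endocrine granules, were at 0 to 0.26 TPM, and the 5 neuroendocrine markers summed to 0.97 TPM or less in every rat. Cpe was at 59.43 TPM or more in the same glands.

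Basic carboxypeptidases also act on kinins, the peptides of local inflammation, and 7 of the 10 listed kinin genes were modelled. In WT rats 3 were called higher, where 3.92% of all modelled genes were, and in P1.hMR rats 4, where 5.05% were. None was called lower. The median log2 fold changes were 0.18 and 0.61, beside 0.01 and -0.02 over all genes. Serping1, which inhibits kallikrein and complement C1, rose from 39.02 to 67.12 TPM to 96.4 to 141.22 TPM, by log2 values of 1.27 (WT) and 1.07 (P1.hMR). The kinin receptor Bdkrb2 rose by 0.79 and 0.75, and Mme, the peptidase neprilysin, by 0.54 and 0.70. Kng1, a kininogen, rose by 0.61 in P1.hMR rats. None of the 9 modelled genes of tubulin tyrosination and glutamylation was called, and their median log2 fold changes were 0.00 in WT and -0.05 in P1.hMR rats.

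Since CPXM1 binds collagen, 18 genes of collagen maturation and cross-linking were read. In WT rats 1 was called higher and 0 lower, where 3.92% and 3.98% of all modelled genes were. In P1.hMR rats 3 were called higher and 1 lower, where 5.05% and 5.71% were. The median log2 fold changes were 0.26 and 0.09, beside 0.01 and -0.02 over all genes. Lox, the cross-linking lysyl oxidase, rose from 3.91 to 6.18 TPM to 8.19 to 14.3 TPM, by 0.99 and 0.98 on the log2 scale (adjusted p = 0.00028 and 1.4e-05 from limma). P4ha3, which hydroxylates collagen prolines, rose by 0.50 in P1.hMR rats, and Tgm2, a transglutaminase, fell by 0.97 there. Tgm2 was uneven in Control P1.hMR, at 49.72 to 165.64 TPM, and overlapped UVB P1.hMR at 43.02 to 60.19 TPM. In WT rats its value of -0.58 was not called. Plod2, a lysyl hydroxylase and the other gene called higher, was at 0.39 to 0.79 TPM in control and 0.79 to 1.91 TPM in UVB rats, so it entered the model through the UVB rats alone and its call carries no support. The main collagen gene Col1a1 had log2 fold changes of -0.51 in WT, not called, and -0.86 in P1.hMR rats, called.

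Marker genes of several cell types moved in the same comparison. Beside the counts below, 3.92% of all modelled genes were called higher and 3.98% lower in WT, and 5.05% and 5.71% in P1.hMR rats. Of 10 macrophage markers 6 were called higher in both genotypes (C1qa, C1qb, C1qc, Cd163, Mrc1 and Cd14), and their list summed to 104 to 185 TPM in control and 161 to 298 TPM in UVB rats, while Csf1r, a defining receptor, stood at 9.76 to 17.61 TPM in control and 9.43 to 17.61 TPM in UVB rats. Of 5 modelled mast cell markers 2 (WT) and 4 (P1.hMR) were called higher, with sums of 20.1 to 29.3 TPM in control and 34.6 to 57.8 TPM in UVB rats. Of 9 fibroblast markers 3 were called higher in both genotypes (Pdgfra, Dcn and Lum), and 1 lower in WT (Pi16) and 2 in P1.hMR rats (Pi16 and Col1a1), with sums of 1028 to 1712 TPM in control and 1310 to 2079 TPM in UVB rats. The 4 hair shaft keratins summed to 202 to 569 TPM in control and 109 to 318 TPM in UVB rats. Krt31 alone was called lower in WT and Krt34 alone in P1.hMR rats, so none was called in both. In the other lists, in WT and then P1.hMR rats, 2 and 0 of 6 smooth muscle, 1 and 2 of 3 neutrophil, 1 and 1 of 5 endothelial, 0 and 1 of 5 adipocyte, 0 and 1 of 7 keratinocyte, 1 and 1 of 10 meibocyte and sebocyte, and 1 and 1 of 4 dermal papilla markers were called higher. Called lower were 0 and 1 smooth muscle, 1 and 0 adipocyte, 2 and 2 of 8 skeletal muscle, 2 and 2 meibocyte and sebocyte, and 2 and 2 dermal papilla markers. Among the called markers, Hdc of the mast cell list and Csf3r of the neutrophil list, both called higher in both genotypes, reached 1 TPM in UVB rats only, and Cidec of the adipocyte list, called lower in WT, did so in 8 control rats and 1 UVB rat. These calls lean on the filter. No marker of any of these lists was at 0 in every rat. The part of these cell types in the carboxypeptidase values was not tested.

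Genes that followed Cpxm1 over the 17 rats were ranked by Pearson's r of log2(TPM + 1) among 13104 genes, as a description of likeness. The 10 highest were Lum (r = 0.98), C1qtnf5, Timp1, Prg4, Cd163, Galnt6, Mmp2, Klk6, Sprr1b and Ednrb (r = 0.97), and 41 genes reached 0.95. They include matrix genes (the collagen-fibril proteoglycan Lum, the gelatinase Mmp2, its inhibitor family member Timp1 and the lubricant Prg4), the macrophage scavenger receptor Cd163 and the epidermal genes Klk6 and Sprr1b. Lum was at 21.76 to 36.42 TPM in control and 69.32 to 136.65 TPM in UVB rats, Timp1 at 9.67 to 14.87 and 58.51 to 173.49 TPM, and Sprr1b, a cornified envelope protein, at 5.51 to 15.45 and 108.06 to 275.09 TPM. For each of the 10, UVB and control rats did not overlap within either genotype. Ranking by pooled r with Cpxm1, whose own groups lie apart, favours such genes, so this count carries no weight of its own. Of all modelled genes, 26.6% separated for WT and 27.2% for P1.hMR, and the share separating for both was not computed. The 5 most opposite genes were Pccb (r = -0.97), Impa2, Vamp8, Nupr1 and Sdc1, and Nupr1, a stress-response regulator, was at 287.9 to 461.08 TPM in control and 104.08 to 139.75 TPM in UVB rats.

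The UVB and control rats form separate clusters, so the pooled r carries the step between the clusters, and by Spearman's rho 0 of the 10 names remained. Within the 9 control rats the r of the same 10 genes ran from -0.56 for Prg4 to 0.62 for Galnt6. Their median was 0.23, where the median over all genes was 0.04. Within the 8 UVB rats it ran from 0.10 for Sprr1b to 0.83 for Cd163, with a median of 0.60, where the median over all genes was 0.09. Lum had 0.59 in control and 0.67 in UVB rats.

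**Figure D4:**
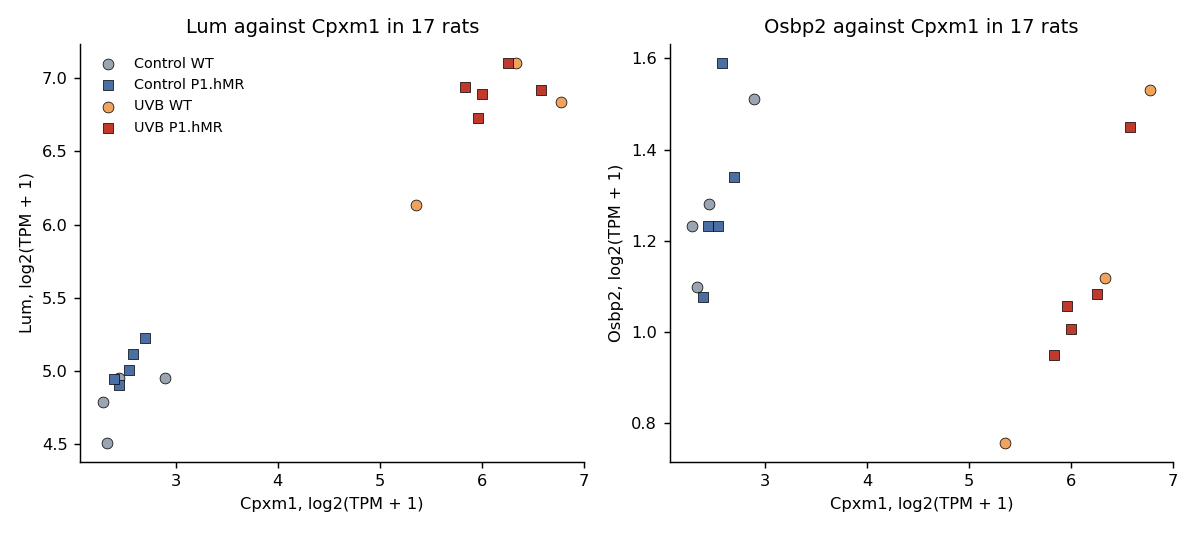
Lum (left) and Osbp2 (right) against Cpxm1, all as log2(TPM + 1), with 1 point per rat and a colour per group. Lum separates from control to UVB together with Cpxm1 (r = 0.98 over 17 rats), whereas Osbp2 follows Cpxm1 inside the control cluster (r = 0.73) and inside the UVB cluster (r = 0.95) but not between them (r = -0.24).

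When each rat was read as its distance from its group mean, so that the UVB shift was taken out, a different list came first. The 10 highest were Osbp2 (r = 0.88), Mark1, Rasl11b, Tnfaip8l2, Csnk1g1, Marchf3, Tnn, Stard13, Cd74 and Vim (r = 0.81), and 0 of them were among the 10 of the pooled ranking. None of these 10 was called after UVB in either genotype. Among all modelled genes 3.92% (WT) and 5.05% (P1.hMR) were called higher, and 3.98% and 5.71% lower, so a count of 0 is near those shares. The largest log2 fold changes in size stayed just under the limit of 0.5. They were 0.47 and 0.48 for Tnn, -0.46 and -0.41 for Mark1, and 0.45 and 0.47 for Tnfaip8l2, whereas Stard13 had -0.07 and -0.01. Vim, the intermediate filament of mesenchymal cells, was at 179.68 to 278.51 TPM in control and 249.05 to 353.13 TPM in UVB rats, with r of 0.67 and 0.96 with Cpxm1 in the 2 sets of rats. Tnn, a matrix tenascin, had 0.68 and 0.89, at 0.23 to 0.57 TPM in control and 0.60 to 1.24 TPM in UVB rats. It entered the model through UVB rats alone, so its place among the 10 leans on the filter. Cd74, the invariant chain of antigen presentation, had 0.77 and 0.81. This list depended on single rats, since with 1 rat left out between 1 and 8 of the 10 names remained, 1 without UVB WT 3 and 2 without UVB WT 2, the highest and the lowest UVB rat for Cpxm1.

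By the same distances from the group means, the 4 hair shaft keratins had a median r of 0.78 with Cpxm1, 0.67 within control and 0.88 within UVB rats, although their summed level was lower after UVB. The 10 macrophage markers had a median of 0.55, 0.43 within control and 0.77 within UVB rats. The 10 meibocyte and sebocyte markers had -0.33 and the 8 skeletal muscle markers -0.45. No such median was read with single rats left out, and in the 3 UVB WT rats Krt34 of the hair shaft list ran from 19.57 to 77.68 TPM. Rats share their glands' makeup across all such genes, and what set these correlations was not tested.

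**Figure D5:**
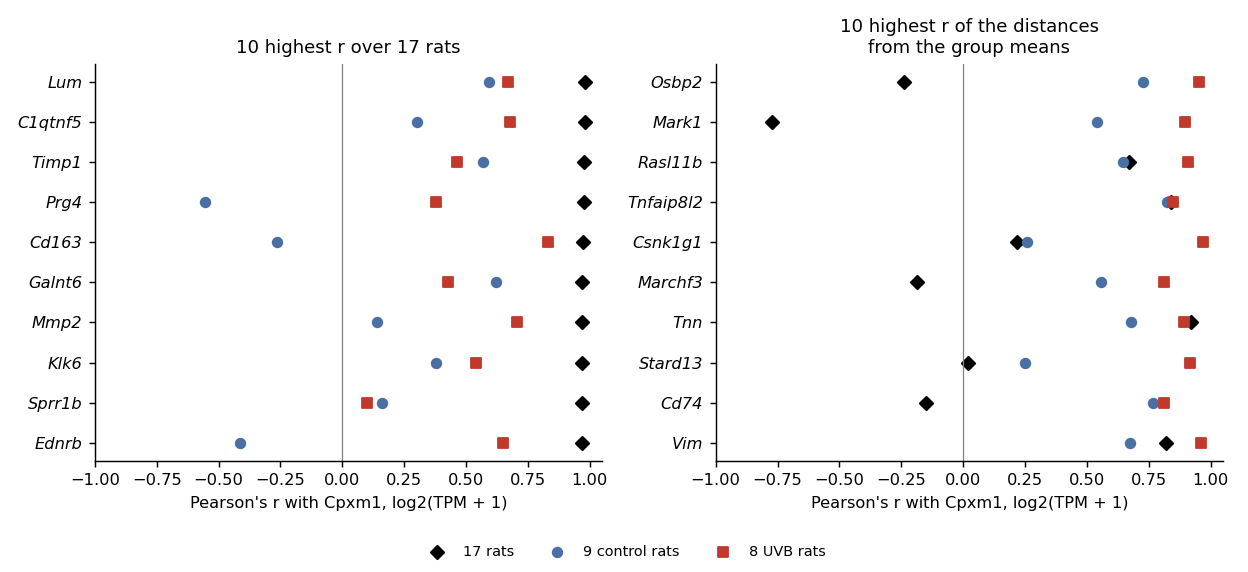
Pearson's r with Cpxm1 on log2(TPM + 1) over 17 rats (diamonds), 9 control rats (circles) and 8 UVB rats (squares), for the 10 genes highest over 17 rats (left) and the 10 highest in distances from the group means (right). On the left r falls from 0.97 or more over 17 rats to a median of 0.23 in control and 0.60 in UVB rats.

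The other listed genes of the family were set against Cpxm1 within the 9 control and the 8 UVB rats, 10 relations in all. None passed, the smallest adjusted p being 0.628 for Pearson's r and 0.539 for Spearman's rho (two-sided permutation tests, Benjamini-Hochberg over 10). Cpxm2 had r = 0.54 and rho = 0.62 in control rats (permutation p = 0.133 and 0.0857) and r = 0.53 and rho = 0.45 in UVB rats (permutation p = 0.180 and 0.267). Without the 2 rats farthest from the median of Cpxm1, the r of Cpxm2 was 0.65 and 0.30. Cpe had r = -0.42 in control and 0.52 in UVB rats (permutation p = 0.257 and 0.188), and -0.59 and 0.24 without the 2 farthest rats. Cpz, Cpd and Agbl2 had r between -0.27 and 0.20, and without the 2 farthest rats between -0.42 and 0.78, the highest being Agbl2 in control rats, which went from 0.20 to 0.78.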

How the data were processed

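Total RNA of the MG was sequenced from 17 female rats, 1 deposited column per rat. Per the methods, the authors ran FastQC, then STAR on the rn7 genome, then RSEM for gene levels. The submitters' processing notes name FastQC, Trimmomatic, DRAGEN, Picard and rn7, and which of these made the table was not settled. The deposited values are TPM with 2 decimals and decimal commas, without further normalization stated. TPM summed to 804378 to 840817 per rat over 17251 genes. TPM keep no depth, so the depth is unknown and no counting interval was computed, and precision comes from the spread between rats. The titles give only group and replicate number. That each column is a separate animal is read from the distinct numbers in the library names. The methods count the UVB samples in eyes, and the paper's reporting summary treats both eyes of an animal, where used, as a single sample. No batch is given in the labels.

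Groups were taken from the sample titles. Values were analysed as log2(TPM + 1). A gene entered the model when 3 or more rats reached 1 TPM, and these 13105 genes were fitted with limma 3.58.1 in R 4.3.3, with a mean for each of 4 groups and a variance trend. UVB was compared with control in each genotype, P1.hMR with WT in each treatment, and the interaction was tested, all two-sided. The DESeq2 test of the study's methods needs counts and was not used. The carboxypeptidase genes and all gene lists were chosen with earlier results of these data known. Named beside the family were the called list genes of largest change, the 10 genes most like Cpxm1 and the 5 least like it, over 17 rats, and the 10 most like it after subtracting group means. Cpa4, Lxn, Aebp1, Col1a1, Csf1r, Pcsk1, Pcsk2, Kng1 and the tubulin enzymes were named from the lists for their role. The value of 1 gene of the lists is not reported here. Promoters came from RefSeq (GRCr8), whose coordinates are not those of rn7. Permutation tests and correlations used scipy 1.17.1 and pandas 2.3.3 (Python 3.11.15), and figures matplotlib 3.10.9.

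On simulated data the model recovered 93% of genes with a log2 change of 1 for UVB in WT, 99% in P1.hMR and 87% for the interaction. Alternatives were a pseudocount of 0.1, other filters, scalings, thresholds and fits, a replicate block, Spearman's rho and each rat left out.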

Additional observations from a re-analysis of the deposited data

Results flagged for a closer look

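Over 14 genes and 42 groups of 4 or 5 rats, 5 groups held a rat whose gap to its nearest neighbour was large for the range of its group, where chance alone flags about 1 in 20 groups. Cpxm2 was at 13.22 TPM in Control P1.hMR 1, below 15.71 to 16.41 TPM in the other 4 rats. Cpz was at 1.98 TPM in UVB P1.hMR 5, below 3.44 to 3.81 TPM in the other 4. Cpa3 was at 10.26 TPM in UVB P1.hMR 4, above 5.82 to 6.5 TPM in the other 4. Control WT 1 was lowest of its group both for Cpa6, at 1.5 TPM against 2.26 to 2.4 TPM, and for Aebp1, at 44.93 TPM against 50.94 TPM or more. Cpxm1 had no such rat in a group of 4 or 5, and the group of 3 UVB WT rats was not examined.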

How the results depend on the processing

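The number of the 5 modelled genes called after UVB was 4 in each genotype and ran from 3 to 4 with each rat left out in turn, while a limit of 1 on the log2 fold change left 1 in WT (Cpxm1) and 2 in P1.hMR rats (Cpxm1 and Cpz). The genotype and interaction counts were 0 to 0 over the same 17 fits. Cpxm1's log2 fold change ran from 3.35 to 4.06 in WT and from 3.48 to 3.67 in P1.hMR rats. For Cpz in WT a fit of only the groups compared gave -0.79 and lost the call. Genotype differences near 0 changed sign: under UVB, Cpxm2 to -0.030 with the replicate block and Cpe to -0.0048 with sample weights, and without UVB, Cpd to 0.0052 with quantile normalization. With single rats left out, the differences under UVB that changed sign ran from -0.43 to 0.28 for Cpxm1, from -0.084 to 0.086 for Cpxm2, from -0.36 to 0.053 for Cpz and from -0.12 to 0.13 for Cpe. Without UVB they ran from -0.028 to 0.17 for Cpxm1 and from -0.058 to 0.064 for Cpd, and the interaction of Cpxm1 ran from -0.47 to 0.24. The cause was not tested.

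Of the 10 genes most like Cpxm1 over 17 rats, 7 to 10 remained with a rat left out and 0 by Spearman's rho. Of the 10 in distances from the group means, 1 to 8 remained with a rat left out, 6 with a pseudocount of 0.1, 4 with quantile normalization and 2 by Spearman's rho. Correlations with Cpxm1 changed sign for Cpd in UVB rats (-0.13 with median-of-ratios scaling, -0.20 without the 2 farthest rats), and without the 2 farthest rats for Cpz (0.22 in control and 0.37 in UVB rats) and Agbl2 in UVB rats (0.15).

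Replicate numbers are shared between groups. Over all groups, same-numbered rats did not deviate together (22 pairs, r from -0.19 to 0.24, median -0.01). The 85 other pairs had r from -0.26 to 0.18 (median 0.01). Same-numbered rats of Control WT and Control P1.hMR had r of 0.19, 0.04, 0.12 and 0.24. Whether the numbers pair the control rats was not tested apart. With the replicate block 4 genes were called in each UVB comparison and 0 in the others, and Cpxm1 had log2 fold changes of 3.73 and 3.60. Agbl2 entered only the fit without a filter, where its interaction was -0.42 (adjusted p = 0.751 from limma). The depth is unknown, and with 3 UVB WT rats the intervals of the genotype differences stay wide.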
